A study of Mus musculus with 10 samples.

Results

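Expression of 9 complement genes was measured in mouse macrophages of the healthy pancreas and of pancreatic tumours. They were taken by symbol from a deposited table of 12535 genes and comprise C1qa, C1qb, C1qc, C3, C4b, Cfb, Cfp, C3ar1 and C5ar1. Each had a row in all 10 libraries and passed the filter on low values (3 or more libraries with an FPKM of 1 or above), as 11127 genes did. FPKM count fragments relative to gene length and library size, which puts genes and libraries on a common scale only approximately. The summed FPKM ran from 459374 in a tumour library to 544670 in a healthy pancreas library, so comparisons between libraries also depend on scaling.

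The cells were sorted as CD45+, CD11b+ and F4/80+, surface proteins of leukocytes, myeloid cells and macrophages. Resident macrophages (n = 4 libraries) came from the healthy pancreas of mice labelled C57/BL6 WT. Tumour-associated macrophages (TAM) came from the pancreas 14 days after implantation of MT4, a single KPC pancreatic adenocarcinoma organoid line. Control TAM (n = 3) carry floxed alleles of Ahr, the gene of the aryl hydrocarbon receptor, and are labelled C57/BL6 Ahr fl/fl. The third group (n = 3) is labelled C57/BL6 Ahr fl/fl Lys M, where Cre driven from the lysozyme locus Lyz2 acts in macrophages, neutrophils and other myeloid cells. It is called cKO-labelled TAM here. Ahr itself was at 4.19 ± 0.261 FPKM in resident macrophages and 7.18 ± 0.309 in control TAM. It was higher, not lower, in the cKO-labelled libraries (10.4 ± 0.785 FPKM, log2 change 0.47 from control TAM, limma adjusted p = 0.000108). Since FPKM per gene include reads from exons that are not floxed, this neither shows nor checks the deletion, and the group is named by its label throughout. Tissue state and genotype label both differ between resident macrophages and either TAM group, so their parts cannot be told apart. No source used here gives the age of the animals. The labels name 2 RNA extraction kits without saying which library used which, so a kit effect was not tested. The p-values measure only the spread between these libraries, which may in part be technical.

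Complement is a cascade of plasma proteins and receptors that marks microbes, immune complexes and dying cells for clearance. In the classical pathway C1q binds the target and its attached proteases cleave C4 and C2. In the alternative pathway deposited C3 joins with factor B, and properdin stabilises the resulting enzyme. Both routes cleave C3 and C5, and the small fragments C3a and C5a act on receptors of myeloid cells. The liver makes most plasma complement, whereas C1q comes mainly from tissue macrophages.

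All 9 genes are protein-coding on the minus strand in the GENCODE M21 annotation of GRCm38. C1qb (ENSMUSG00000036905, chr4:136880129-136886187), C1qc (ENSMUSG00000036896, chr4:136889804-136893065) and C1qa (ENSMUSG00000036887, chr4:136895917-136898803) lie side by side within 18675 bases, and each has 3 exons. C4b (ENSMUSG00000073418, chr17:34728380-34743882, 41 exons) and Cfb (ENSMUSG00000090231, chr17:34856374-34862518, 18 exons) lie in another stretch of 134139 bases. C3 (ENSMUSG00000024164, chr17:57203970-57228136, 41 exons) lies farther along that chromosome. Cfp (ENSMUSG00000001128, chrX:20925454-20931555, 9 exons), C3ar1 (ENSMUSG00000040552, chr6:122847138-122856161, 2 exons) and C5ar1 (ENSMUSG00000049130, chr7:16246743-16259540, 3 exons) stand apart from the others. Exon numbers are those of the transcript with the most exons.

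Upstream sequence is shown for 4 genes. C1qb and C1qc are neighbours with the same order of group levels, Cfp shares that order, and C3 has another one. The sequences are from RefSeq (GRCm38.p6), read 5′ to 3′ on the gene's strand, and each was trimmed where it ran into a GENCODE transcript of that gene. They cover chr4:136886201-136886450 (C1qb), chr4:136893066-136893164 (C1qc), chr17:57228137-57228386 (C3) and chrX:20931556-20931805 (Cfp), all on the minus strand. Capitals mark the motif matches described below.
C1qb: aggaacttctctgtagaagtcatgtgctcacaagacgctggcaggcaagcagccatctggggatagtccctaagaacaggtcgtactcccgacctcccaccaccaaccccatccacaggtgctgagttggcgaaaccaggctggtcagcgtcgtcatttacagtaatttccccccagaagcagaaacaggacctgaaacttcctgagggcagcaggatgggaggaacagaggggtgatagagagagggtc
C1qc: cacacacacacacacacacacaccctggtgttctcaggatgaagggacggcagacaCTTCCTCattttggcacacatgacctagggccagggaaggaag
C3: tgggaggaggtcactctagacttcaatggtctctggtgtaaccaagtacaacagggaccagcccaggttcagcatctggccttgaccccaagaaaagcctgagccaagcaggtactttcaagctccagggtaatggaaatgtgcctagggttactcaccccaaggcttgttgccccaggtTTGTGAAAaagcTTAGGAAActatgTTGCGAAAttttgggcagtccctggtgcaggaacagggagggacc
Cfp: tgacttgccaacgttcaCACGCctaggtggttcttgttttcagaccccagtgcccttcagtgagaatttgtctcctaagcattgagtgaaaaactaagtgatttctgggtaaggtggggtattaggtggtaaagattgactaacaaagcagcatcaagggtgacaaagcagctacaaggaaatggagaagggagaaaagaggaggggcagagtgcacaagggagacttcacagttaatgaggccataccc

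The motifs were searched on both strands in the 250 bases before the RefSeq start, which 6 of the 9 genes had in the RefSeq table. Searched were the core of the AhR site, GCGTG, and the letters bound by the macrophage factor PU.1, GAGGAAG. Further motifs were the Maf half-site TGCTGAC, the C/EBP site TTNNGNAA and the TATA box TATAAA. The NF-kB site and the interferon-stimulated response element were searched as well. C3 held 3 C/EBP matches in a row, TTGTGAAA at -70, TTAGGAAA at -58 and TTGCGAAA at -45, counted from the RefSeq start. A C/EBP match was present in 36.8% of all 32851 windows of that length. The upstream stretch of C1qc held CTTCCTC at -194, the PU.1 letters on the opposite strand, which 10.6% of windows hold on either strand. Cfp held CACGC at -233, the AhR core on the opposite strand, which 28.2% of windows hold. C1qb held none of the 7 motifs in this window. Outside the printed stretches, C1qc held the C/EBP letters TTCTGGAA at -81, C5ar1 held TTGGGGAA at -157, and C3ar1 held TATAAA at -235, which 12.4% of windows hold. No match overlapped another, and a match is a description of letters, not of binding.

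The C1q genes were among the most abundant transcripts of these cells. By FPKM, C1qb ranked between 6 and 9 among all genes in every library, and its highest rank was in resident macrophages. Its reads, estimated from the FPKM and the longest annotated transcript, numbered 53130 to 156099 per library. Cfb was the least abundant of the 9, with 171 to 1456 estimated reads. Together the 9 genes took 3.72% of the total FPKM in resident macrophages and 2.47% in control TAM, against 2.75% in cKO-labelled TAM. Within a group the coefficient of variation of a complement gene lay between 0.749% (C1qc, cKO-labelled TAM) and 7.93% (Cfb, resident). The plot of FPKM by library shows how closely libraries of a group lay together.

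**Figure D1:**
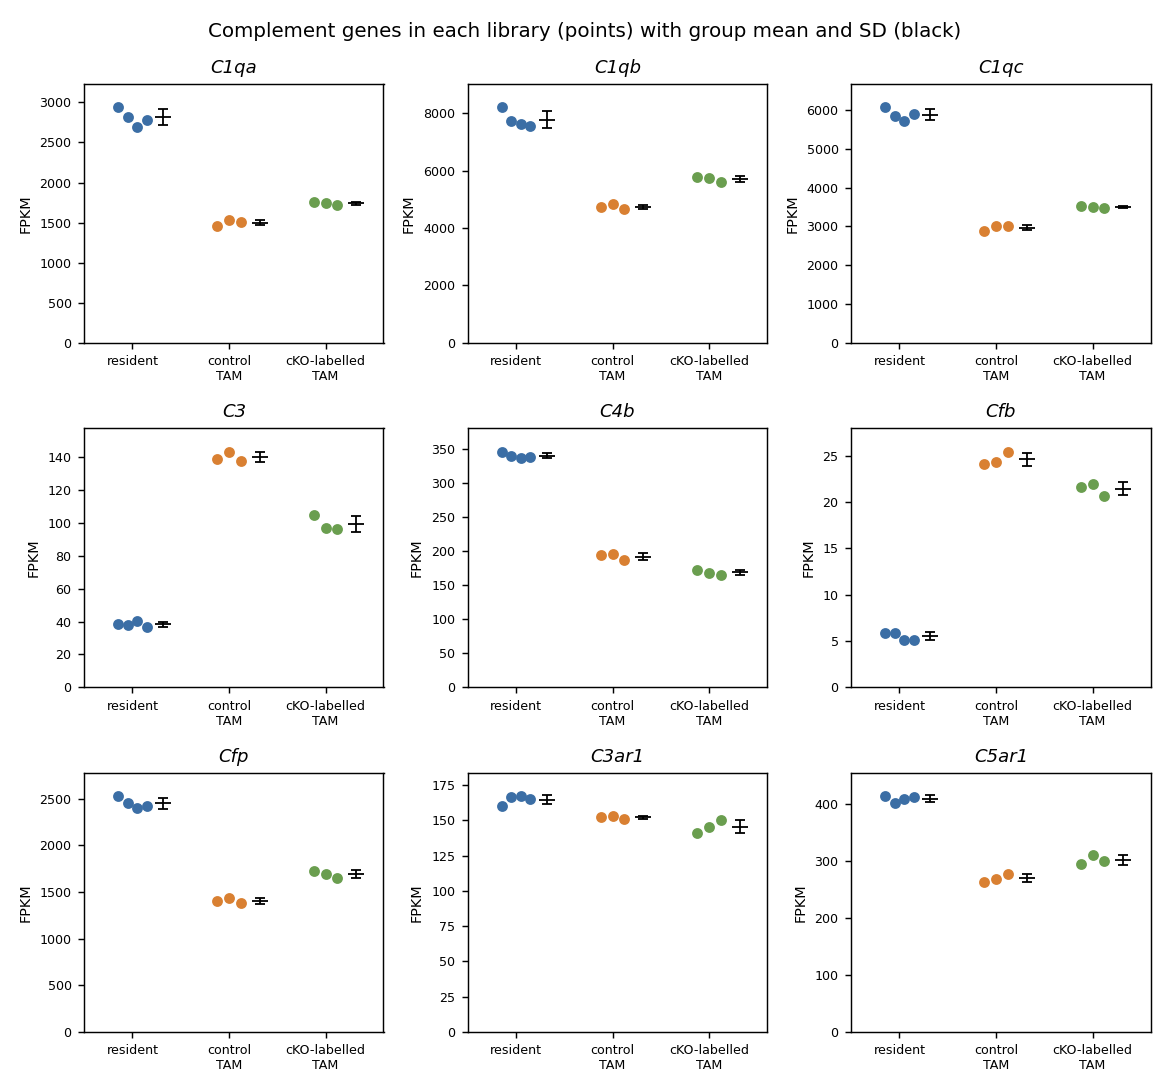
FPKM of the 9 complement genes (vertical axes, linear from 0) in each library (coloured points), by group, with the group mean and SD in black (n = 4 resident, n = 3 in either TAM group). C1qa, C1qb, C1qc, C4b, Cfp and C5ar1 sit highest in resident macrophages and C3 and Cfb lowest there, while C3ar1 stays between 141 and 167 FPKM in every library.

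All 9 genes differed between control TAM and resident macrophages. C3 and Cfb rose, and C1qa, C1qb, C1qc, C4b, Cfp, C3ar1 and C5ar1 fell (limma on log2(FPKM + 1), adjusted p under 0.05). Of all genes tested, 39% were called higher and 38.1% lower in this comparison, so a call by itself is common here. When the libraries were set to the same summed FPKM, the median of all genes shifted by 0.18 (log2), and higher genes made up 65.9% of the calls instead of 50.6% (60.7% when acinar genes were left out of the sum). A change of at least 2-fold was called for 2 of the 9, C3 and Cfb, both higher, against 9.98% of all genes higher and 6.95% lower. The median log2 change of the 9 was -0.72, against 0.0017 over all genes tested. C3ar1 is the exception in how it stands up to scaling. Its change of -0.11 turned to 0.10 when each library was rescaled to a common total of FPKM.

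Between cKO-labelled and control TAM the changes were smaller. C1qa, C1qb, C1qc, Cfp and C5ar1 rose, C3, C4b and Cfb fell, and C3ar1 did not pass the threshold. That makes 5 of 9 higher and 3 of 9 lower, beside 20.5% and 19.1% of all genes tested. With a common total 32.9% of all calls were higher instead of 51.8%, and the 9 genes kept these directions. None of the 9 reached a 2-fold change, which 1.01% of all genes did upward and 0.315% downward. The median log2 change of the 9 was 0.16, and 0.012 over all genes. This comparison and the previous one share the control TAM libraries, so their directions for a gene are not independent.

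Set directly against resident macrophages, cKO-labelled TAM had 2 of the 9 genes higher (C3 and Cfb) and 7 lower. Over all genes 40.2% were higher and 37.2% lower. A 2-fold change was called for C3 and Cfb upward and C4b downward, beside 8.95% and 6.17% of all genes. The median log2 change of the 9 was -0.45, against 0.021 over all genes tested. Quantile normalization took the falls of C1qa, C1qb, C1qc and Cfp in this comparison from -0.69, -0.45, -0.75 and -0.54 to -0.31, -0.20, -0.47 and -0.11. The order of the group means took 3 forms. C1qa, C1qb, C1qc, Cfp and C5ar1 were highest in resident macrophages and lowest in control TAM. C3 and Cfb ran the opposite way, and C4b and C3ar1 were highest in resident macrophages and lowest in cKO-labelled TAM.

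**Figure D2:**
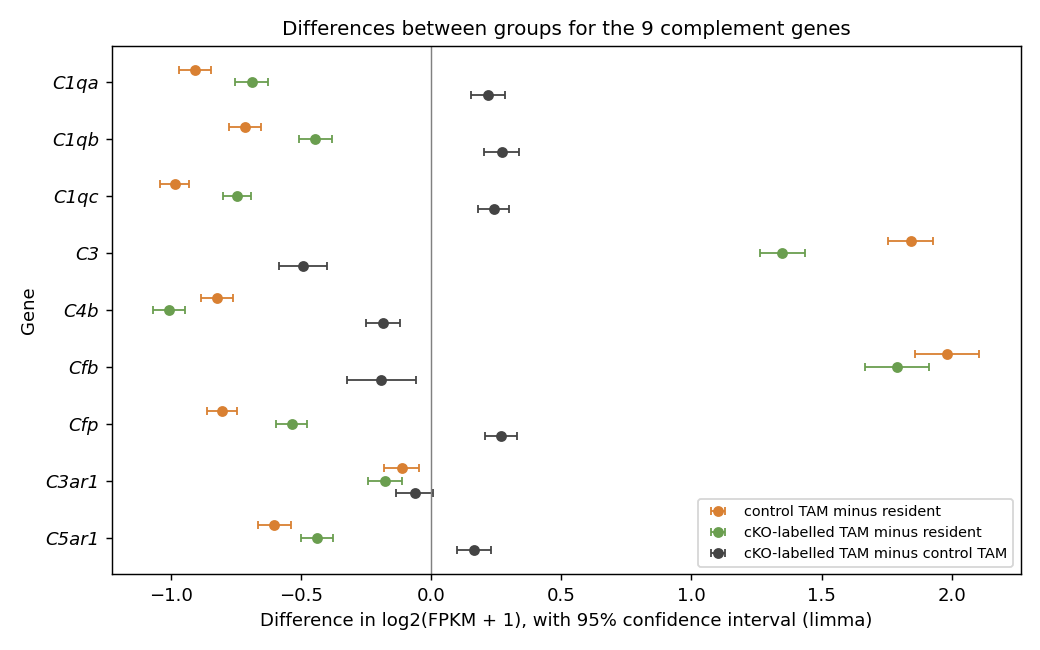
Difference in log2(FPKM + 1) between groups (horizontal axis) for each complement gene, with the limma 95% confidence interval as bars. C3 (1.84) and Cfb (1.98) lie farthest to the right in control TAM minus resident macrophages, the differences between cKO-labelled and control TAM lie between -0.49 and 0.27, and only the interval of C3ar1 in that comparison reaches across 0.

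C1q is the recognition molecule of the classical pathway, assembled from A, B and C chains encoded by C1qa, C1qb and C1qc. C1qa stood at 2939.7, 2823, 2698 and 2786 FPKM in resident macrophages and at 1461, 1528 and 1503 in control TAM, against 1757, 1748 and 1717 in cKO-labelled TAM. No library of a group overlapped with those of another, and every cKO-labelled library lay between control TAM and resident macrophages. The mean was 1.88-fold higher in resident macrophages than in control TAM (2812 ± 100.2 and 1497 ± 33.6 FPKM, SD), a log2 change of -0.91 ± 0.03 (SE, limma adjusted p = 8.33e-14). From control to cKO-labelled TAM (1741 ± 20.8 FPKM) it rose 1.16-fold, by 0.22 ± 0.03 on the log2 scale (adjusted p = 6.14e-05).

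C1qb, the most abundant of the 3 chain transcripts, stood at 8212, 7716, 7612 and 7569 FPKM in resident macrophages. Its level was 4720.3, 4823 and 4657 FPKM in control TAM, against 5784, 5741 and 5599.9 in cKO-labelled TAM. The groups again did not overlap, and their order was that of C1qa. Resident macrophages exceeded control TAM 1.64-fold (7777 ± 296 and 4733 ± 83.5 FPKM), a log2 change of -0.72 ± 0.03. cKO-labelled TAM exceeded control TAM 1.21-fold (5708 ± 96.3 FPKM), a log2 change of 0.27 ± 0.03 (adjusted p = 7.66e-06). After quantile normalization, which equalises the distribution of values across libraries, these changes of C1qb shrank to -0.26 (adjusted p = 3.32e-08) and 0.05 (adjusted p = 0.0817).

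C1qc stood at 6076, 5844, 5721 and 5908 FPKM in resident macrophages and at 2895, 3001 and 3016 in control TAM, against 3531, 3514 and 3479 in cKO-labelled TAM. Of the C1q genes it had the widest gap between resident macrophages and control TAM, 1.98-fold (5887 ± 148 and 2971 ± 65.5 FPKM, log2 change -0.99 ± 0.03). It rose 1.18-fold from control to cKO-labelled TAM (3508 ± 26.3 FPKM, log2 change 0.24 ± 0.03, adjusted p = 7.1e-06). No library broke the order resident, cKO-labelled, control. Under quantile normalization the falls in control TAM were smaller for C1qa (-0.59) and C1qc (-0.66) as well, both still past the threshold. Rescaling to a common total brought the rise of C1qa in cKO-labelled TAM down to 0.14, still past the threshold (adjusted p = 0.000574). In bulk RNA, fewer cells of a type and less RNA per cell cannot be told apart.

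The summed FPKM of the C1q genes was 16476 ± 522 in resident macrophages and 9201 ± 139 in control TAM, against 10957 ± 143 in cKO-labelled TAM. That was 3.08%, 2.0% and 2.25% of the total FPKM. The chains did not keep the same proportions in the groups. The ratio of C1qb to C1qa within a library, which dividing a library by 1 factor cannot alter, ran from 2.72 to 2.82 in resident macrophages, from 3.10 to 3.23 in control TAM and from 3.26 to 3.29 in cKO-labelled TAM. The ratio of C1qc to C1qa ran from 2.07 to 2.12, from 1.96 to 2.01 and from 2.01 to 2.03 in the same order. Either TAM group thus had relatively more C1qb and relatively less C1qc than resident macrophages, with no overlap.

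The C1qb to C1qa ratio in control TAM exceeded that in resident macrophages by 0.19 on the log2 scale, and in cKO-labelled TAM by 0.25. The C1qc to C1qa ratio was lower by -0.08 and by -0.06. Each of these 4 differences had an exact two-sided permutation p of 0.0286, the smallest that 4 libraries against 3 can give (0.0429 adjusted over the 6 ratio comparisons). Between the TAM groups both ratios had p = 0.1, the smallest that 3 against 3 can give in this exact test, with differences of 0.05 and 0.02. With any 1 library left out, the directions held, and the C1qb to C1qa difference between control TAM and resident macrophages ran from 0.18 to 0.21. Quantile normalization, which changes each value by its rank and was added for these ratios after seeing the data, did alter them. The C1qb to C1qa difference was then 0.34 between control TAM and resident macrophages (exact permutation p = 0.0286), and -0.23 between cKO-labelled and control TAM, the opposite direction. The C1qc to C1qa difference between control TAM and resident macrophages was then -0.06 with an exact permutation p of 0.457, so the C1qc ratio does not hold under it.

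**Figure D3:**
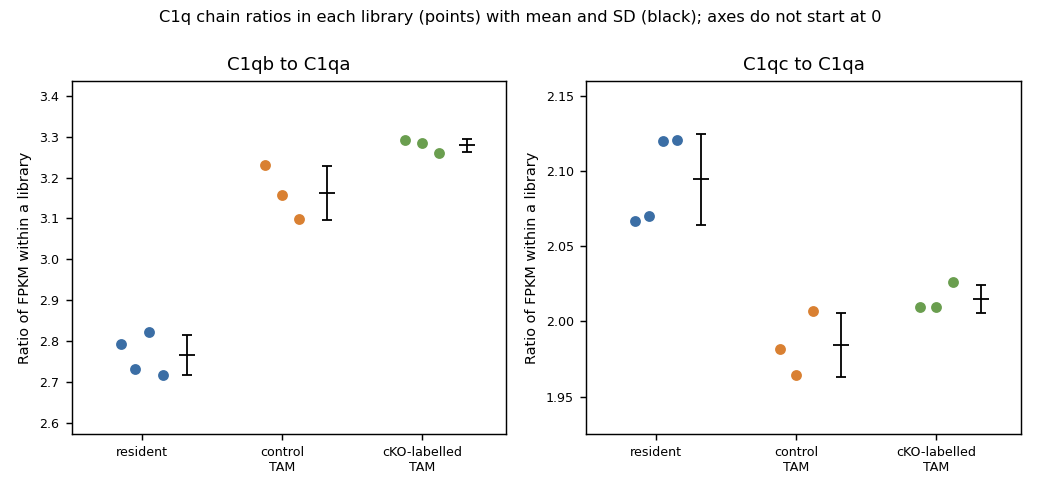
Ratio of FPKM of C1qb to C1qa (left) and C1qc to C1qa (right) within each library (points, by group), with group mean and SD in black. The vertical axes do not start at 0. The mean C1qb to C1qa ratio is 2.77 in resident macrophages and 3.16 in control TAM, against 3.28 in cKO-labelled TAM, and the C1qc to C1qa ratio is 2.09, 1.98 and 2.02.

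C4b encodes complement C4, the substrate of the C1 proteases and a part of the classical pathway's C3-cleaving enzyme. Its level was 346, 340.1, 337 and 338 FPKM in resident macrophages and 194, 195 and 187 in control TAM, against 172, 169 and 165 in cKO-labelled TAM. Here the cKO-labelled libraries were the lowest, below every control TAM library. The mean was 1.77-fold higher in resident macrophages than in control TAM (340.3 ± 4.12 and 192 ± 4.65 FPKM, log2 change -0.82 ± 0.03, adjusted p = 2.24e-13). It fell further in cKO-labelled TAM (169 ± 3.49 FPKM), by 0.18 ± 0.03 on the log2 scale (adjusted p = 0.000222). C4a, the near copy of C4b, shares 35.2% of the 50-base runs of C4b's longest transcript and stood at only 0.242 to 0.322 FPKM (group means). How the authors assigned reads that fit both is not given in the sources used here, so the C4b level is uncertain to that extent.

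C3 is the central component on which all pathways meet. It stood at 38.6, 38.2, 40.1 and 36.5 FPKM in resident macrophages and at 139, 143 and 138 in control TAM, against 105, 96.6 and 96.2 in cKO-labelled TAM. The resident libraries were the lowest, and the cKO-labelled libraries lay between the other groups without overlap. Control TAM exceeded resident macrophages 3.65-fold (140.1 ± 2.92 and 38.4 ± 1.49 FPKM, log2 change 1.84 ± 0.04, adjusted p = 6.64e-16). In cKO-labelled TAM the level was 99.2 ± 4.90 FPKM, a log2 change of -0.49 ± 0.04 from control TAM (adjusted p = 4.17e-07). This was the widest difference between the TAM groups among the 9 genes, a 1.41-fold higher level in control TAM.

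Cfb encodes factor B, the protease component of the alternative pathway enzyme. Resident macrophages held 5.84, 5.90, 5.14 and 5.10 FPKM, control TAM 24.1, 24.3 and 25.4, and cKO-labelled TAM 21.6, 22.0 and 20.7. The rise from resident macrophages to control TAM was 4.48-fold (5.50 ± 0.436 and 24.6 ± 0.709 FPKM, log2 change 1.98 ± 0.06, adjusted p = 2.52e-14). The cKO-labelled libraries (21.4 ± 0.686 FPKM) all lay below control TAM, with a log2 change of -0.19 ± 0.06 (adjusted p = 0.0224). That call was lost without control TAM replicate 3 (adjusted p = 0.0797) or without cKO-labelled TAM replicate 3 (adjusted p = 0.0881), with a log2 change of -0.17 in either case. The annotated gene Gm20547 overlaps Cfb on the same strand and shares 81.4% of its 50-base runs. It was not analysed here, and reads of both cannot be told apart over that stretch.

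Fibroblasts, mesothelial cells and epithelial cells can express C3, C4b or Cfb too, and their markers differed between the groups. Most of them rose in control TAM, where C3 and Cfb rose and C4b fell. Of 8 tested fibroblast markers, 6 were higher and 1 lower in control TAM than in resident macrophages. Their summed level was 41.6 to 45.9 FPKM in resident libraries and 167 to 169 in control TAM, against 129.6 to 134 in cKO-labelled TAM, led by Col3a1 and Dcn. Between the TAM groups 4 of these markers rose and 2 fell. All 5 tested mesothelial markers rose in control TAM, where they summed to 110.0 to 121 FPKM against 2.69 to 3.46 in resident libraries, and all 5 fell in cKO-labelled TAM, to 90.1 to 93.7. The 9 tested epithelial markers all rose in control TAM, from sums of 10.9 to 12.1 to sums of 273 to 281 FPKM, and were at 276 to 290.3 in cKO-labelled TAM (2 higher, 1 lower). None of these marker genes was at 0 in every library of a group. Krt19 is on both of the last lists. It made up 58.2% (resident), 71.8% (control) and 75.2% (cKO-labelled) of the mean mesothelial sum. Without Krt19 that sum ran from 0.963 to 1.46 FPKM (resident), 30.6 to 34.7 (control) and 22.0 to 23.6 (cKO-labelled). The part of such cells in the changes of C3, C4b and Cfb was not tested.

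Cfp encodes properdin, the alternative pathway's positive regulator, which neutrophils and monocytes make as well as macrophages. It stood at 2529, 2458, 2399 and 2422 FPKM in resident macrophages and at 1399, 1436 and 1378 in control TAM, against 1729.9, 1694 and 1645 in cKO-labelled TAM. The pattern was that of C1qb, with no overlap of the groups. Resident macrophages held 1.75-fold more than control TAM (2452 ± 56.5 and 1404 ± 29.5 FPKM, log2 change -0.80 ± 0.03, adjusted p = 1.74e-13). cKO-labelled TAM held 1.20-fold more than control TAM (1689.9 ± 42.5 FPKM, log2 change 0.27 ± 0.03, adjusted p = 4.29e-06). Among alternative pathway genes, C3 and Cfb thus rose from resident macrophages to control TAM, while Cfp and the factor D gene Cfd, described with the proteases, fell. After quantile normalization the fall of Cfp in control TAM was smaller, -0.38, and still past the threshold.

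C5ar1 encodes the main receptor of C5a, a strong attractant of neutrophils and macrophages. Its level was 413, 401, 409 and 412 FPKM in resident macrophages and 263, 268 and 276 in control TAM, against 294, 310.4 and 300.0 in cKO-labelled TAM. Resident macrophages were highest and control TAM lowest, without overlap. The log2 change from resident macrophages (409 ± 5.49 FPKM) to control TAM (269 ± 6.91 FPKM) was -0.60 ± 0.03 (adjusted p = 1.6e-11), and -0.39 when rescaled to a common total. From control to cKO-labelled TAM (302 ± 8.21 FPKM) it was 0.16 ± 0.03 (adjusted p = 0.000656), and 0.09 when rescaled (adjusted p = 0.0242). C5ar2, the second C5a receptor and the direct neighbour of C5ar1, was low, at 3.46 ± 0.524, 1.39 ± 0.014 and 1.53 ± 0.0813 FPKM in the same order. It fell in control TAM and did not differ past the threshold between the TAM groups (adjusted p = 0.502).

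Neutrophils express Cfp and C5ar1 too. Of 10 tested neutrophil markers, 8 were higher and 1 lower in control TAM than in resident macrophages, and 7 were higher and 1 lower in cKO-labelled than in control TAM. They summed to 359.5 to 369 FPKM in resident libraries and 1291 to 1318 in control TAM, against 1629.7 to 1792 in cKO-labelled TAM, led by Retnlg and Mmp9. The sums in TAM rest on Retnlg, whose mean was 0.332 FPKM in resident macrophages and 1166 in control TAM, against 1420.3 in cKO-labelled TAM. The other 9 markers summed to 359 to 369, 138 to 149 and 292 to 301 FPKM in that order of groups. In resident libraries this sum rests on Mmp9, at 329 of 363 FPKM on average. In TAM Mmp9 was a smaller part, at 41.5 of 143 FPKM in control TAM and 123 of 295 in cKO-labelled TAM. Mmp9 was lowest in control TAM, as Cfp and C5ar1 were. Every tested neutrophil marker other than Mmp9 had its lowest mean in resident macrophages. The part of neutrophils in the rise of Cfp and C5ar1 in cKO-labelled TAM was not tested.

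C3ar1 encodes the receptor of C3a and was the least variable of the 9 genes between groups. It stood at 159.9, 167, 167 and 165 FPKM in resident macrophages and at 153, 153 and 151 in control TAM, against 141, 145 and 150.1 in cKO-labelled TAM. The groups lay close together, and the highest cKO-labelled library was just below the lowest control library. From 165 ± 3.30 to 152 ± 1.20 FPKM the log2 change in control TAM was -0.11 ± 0.03 (adjusted p = 0.00328). It was 0.10 after rescaling to a common total (adjusted p = 0.0141), 0.025 after rescaling without acinar genes (adjusted p = 0.501) and 0.016 with the recovered read totals (adjusted p = 0.661), so its direction depends on the scaling. Between the TAM groups (146 ± 4.58 FPKM in cKO-labelled TAM) the log2 change was -0.06, with a 95% confidence interval from -0.13 to 0.01 (adjusted p = 0.141). Under quantile normalization the fall in control TAM was larger, -0.19. Rescaled to a common total, the difference between the TAM groups was -0.14 and passed the threshold (adjusted p = 0.00463).

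The rest of the complement system was followed through 46 further genes in 4 lists, of which 23 passed the filter on low values. In control TAM against resident macrophages 10 of the 23 rose and 12 fell, where 39% and 38.1% of all genes tested did. Rescaled to a common total, 10 rose and 9 fell, and higher genes made up 65.9% of all calls. With acinar genes left out of that total, 10 rose and 10 fell, and 60.7% of all calls were higher. The smallest falls, those of Cr1l, Cd55 and Cd93 given below, may thus depend on the scaling. In cKO-labelled against control TAM 5 rose and 10 fell, beside 20.5% and 19.1% of all genes. In cKO-labelled TAM against resident macrophages 10 rose and 10 fell, beside 40.2% and 37.2%. The median log2 changes of the 23 were -0.13, -0.19 and -0.12, against 0.0017, 0.012 and 0.021 over all genes tested. The plot of these genes shows the first 2 comparisons.

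Among proteases and lectins, 2 of 6 rose and 4 fell in control TAM. The partners of C1q in the C1 complex both rose, C1s1 from 0.694 ± 0.136 to 10.6 ± 1.36 FPKM and C1ra from 8.04 ± 0.676 to 31.2 ± 1.34. Thus the C1 proteases were higher and the C1q chains lower in control TAM. In cKO-labelled TAM both fell again, C1s1 to 3.35 ± 0.375 FPKM (log2 change -1.41, adjusted p = 4.18e-08) and C1ra to 20.9 ± 1.06 (log2 change -0.55). Fibroblast and mesothelial markers moved in these libraries as given above, and their part in C1s1 and C1ra was not tested. The largest falls from resident macrophages to control TAM were those of the scavenger lectin Colec12 (62.2 ± 2.89 to 6.02 ± 0.53 FPKM), of Cfd, the factor D protease that activates factor B (6.70 ± 0.656 to 0.0281 ± 0.0486), and of the lectin pathway ficolin Fcna (2559 ± 53.3 to 501 ± 6.58). In cKO-labelled TAM Fcna rose to 672 ± 9.93 FPKM and Colec12 fell to 3.64 ± 0.316. C2, which lies directly beside Cfb and has the matching role in the classical pathway, moved opposite to Cfb between resident macrophages and control TAM, from 4.98 ± 0.299 to 1.92 ± 0.322 FPKM (log2 change -1.04, adjusted p = 1.88e-08). From control to cKO-labelled TAM C2 and Cfb both fell, C2 to 1.27 ± 0.163 FPKM (log2 change -0.36, adjusted p = 0.00661).

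Of the terminal components, C6, a part of the membrane attack complex, was at 28.5 ± 0.964 FPKM in resident macrophages and 1.26 ± 0.124 in control TAM, against 8.48 ± 0.331 in cKO-labelled TAM. Its log2 change of 2.07 ± 0.06 between the TAM groups (adjusted p = 7.3e-13) was larger than that of any of the 9 genes. C8g, the other terminal gene tested, passed the threshold in neither comparison. Among the regulators 3 of 7 rose and 4 fell in control TAM. Clusterin (Clu), an inhibitor of the terminal complex, rose from 18.6 ± 0.988 to 236 ± 5.54 FPKM, and Serping1, which encodes the C1 inhibitor, from 6.93 ± 0.604 to 44.1 ± 1.33. Among those that fell, Cd55 went from 5.13 ± 0.139 to 4.06 ± 0.306 FPKM, and to 3.00 ± 0.443 in cKO-labelled TAM. Cr1l went from 20.9 ± 0.62 to 19.0 ± 1.20 FPKM in control TAM (log2 change -0.13, limma adjusted p = 0.0281). A common total shifted the median of all genes by 0.18 (log2) in this comparison, so the direction of so small a change may depend on the scaling. In cKO-labelled TAM Serping1 fell to 23.8 ± 1.34 FPKM and Clu rose to 277 ± 0.327. Serping1 therefore followed C3, C1s1 and C1ra, highest in control TAM.

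Of the 8 other receptors 5 rose and 3 fell in control TAM. The integrin chains of the C3 fragment receptors all rose, Itgax from 0.888 ± 0.197 to 6.93 ± 0.582 FPKM, Itgam (CD11b) from 31.4 ± 0.995 to 75.9 ± 5.23 and Itgb2 from 429.9 ± 15.1 to 853 ± 13.5. CD11b was also used to sort the cells. In cKO-labelled TAM Itgb2 fell to 645 ± 10.3 and Itgam to 59.7 ± 3.32 FPKM, and Itgax was at 7.40 ± 0.361 (adjusted p = 0.512). Vsig4, the receptor of C3b on resident macrophages, fell from 129 ± 7.05 in resident macrophages to 95.4 ± 3.47 FPKM in control TAM, and stood at 72.5 ± 3.03 in cKO-labelled TAM. Calr and C1qbp, whose products bind C1q, rose in control TAM, and neither passed the threshold between the TAM groups. Cd93 fell from 7.99 ± 0.236 to 6.32 ± 0.492 FPKM in control TAM. It stood at 7.28 ± 0.058 in cKO-labelled TAM (log2 change 0.18 from control TAM, adjusted p = 0.0398).

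**Figure D4:**
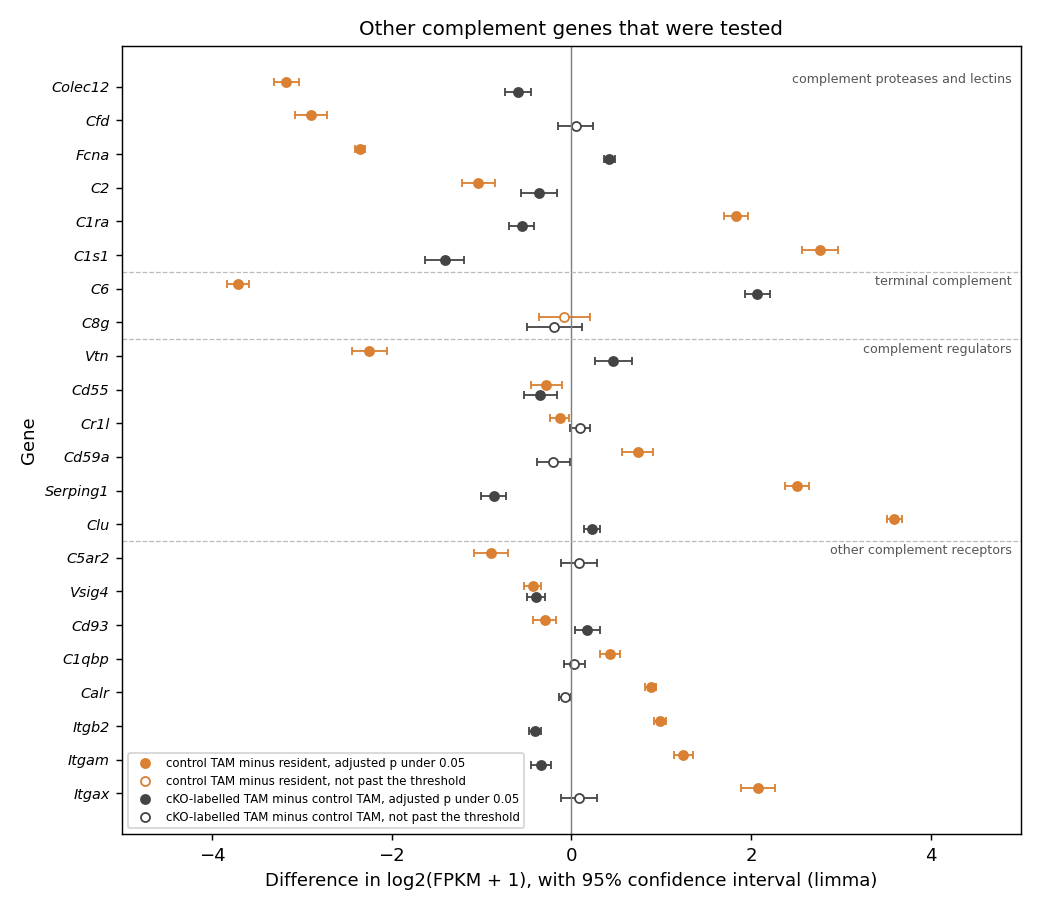
Difference in log2(FPKM + 1) (horizontal axis) for 22 of the 23 other complement genes tested, grouped by list, with the limma 95% confidence interval; filled points passed the threshold and open points did not. C6 lies at -3.71 in control TAM minus resident macrophages and at 2.07 in cKO-labelled minus control TAM, while C1s1 lies at 2.77 and -1.41.

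The profiles over the 10 libraries were compared by the root mean square difference of log2(FPKM + 1), each gene centred on its own mean, where a smaller value means a closer profile. Among the 9 genes C1qa and C1qc were the closest pair (0.037), followed by C1qb and Cfp (0.046). C1qa and C1qb, 2 chains of 1 protein, were farther apart (0.11), and C3 and Cfb were at 0.20. These differences mostly reflect the 3 group levels. Outside the 9, among 4901 genes with a mean FPKM of at least 10, the closest profiles were Pld4 (0.025) and Ninj1 (0.029) for C1qa, Cmtm3 (0.034) and Stard3nl (0.041) for C1qb, and Npepl1 (0.035) and Ninj1 (0.038) for C1qc. For C3 they were Anxa2 (0.058) and Pygl (0.061), for Cfb Ccrl2 (0.056) and Ifi30 (0.063), and for C4b Sh3tc1 (0.043) and Khnyn (0.044). For Cfp they were Pla2g15 (0.030) and Cyth4 (0.036), for C5ar1 Idh3g (0.035) and Cd300a (0.035), and for C3ar1 Fam114a2 (0.024) and Ddx47 (0.027).

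For each gene the closest gene with a row in the table was taken on either side, which gave 14 neighbours outside the 9. They lay 2 (Nelfe) to 277406 bases (Kdm1a) away, Zbtb40 80929 and Atf6b 73306, so genes without a row may lie between. Of the 14, 6 had the same order of group means as their complement gene (values below are resident, control TAM and cKO-labelled TAM means). The share of all genes with such an order was not counted, so no result is read from this number. The 6 are given first. These were Zbtb40 by C1qa (1.01, 0.790 and 0.890 FPKM), Stk19-ps1 by C4b (7.15, 2.63 and 2.45), Nelfe by Cfb (22.2, 33.0 and 32.3), Syn1 by Cfp (1.69, 0.617 and 0.853), and C5ar2 and Inafm1 by C5ar1 (7.51, 2.64 and 3.79 for Inafm1). Nelfe, a subunit gene of a factor that pauses RNA polymerase, ends 2 bases from the end of Cfb on the opposite strand and was at a level close to that of Cfb in TAM. Without strand information, reads at that border cannot be assigned to either with certainty. The other 8 had another order. Kdm1a by C1qb (25.1, 24.1 and 23.4 FPKM), Gpr108 by C3 (68.3, 67.0 and 68.0) and Atf6b by C4b (30.8, 30.3 and 32.2) varied little. Tnfsf14, a cytokine gene beside C3, was at 1.65, 16.3 and 21.3 FPKM, and the rest were C2, Elk1, Foxj2 and Necap1.

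The libraries held an estimated 10312578 to 26454673 reads. Lyz2, the locus of the Cre driver, was at 28140.4 ± 477 FPKM in resident macrophages and 19904 ± 85.1 in control TAM, against 11459.7 ± 203 in cKO-labelled TAM. All 13 macrophage identity markers were detected. They summed to 32704 to 33539.8 FPKM in resident libraries and 23533 to 23626 in control TAM, against 14856 to 15199.8 in cKO-labelled TAM. Lyz2 carried most of that, and the other 12 markers summed to 4909.8 to 5022, 3652 to 3723 and 3503 to 3618 FPKM, so that their fall between the TAM groups was small. Of the 13 markers, 9 were lower and 4 higher from resident macrophages to control TAM, then 7 lower and 2 higher in cKO-labelled TAM, where the C1q genes rose. Acinar enzyme markers summed to 25882 to 27488 FPKM in resident libraries, 68.8 to 72.3 in control TAM, where Amy2a5 was listed at 0, and 296 to 306 in cKO-labelled TAM (all 11 tested were lower, then higher). B cell markers (3 of 3 lower, then 3 of 3 higher) summed to 875 to 893, 85.4 to 94.4 and 238 to 242 FPKM, and dendritic cell markers (3 of 4 lower, then 3 of 4 higher) to 161 to 174, 32.4 to 38.9 and 77.1 to 82.8 FPKM. Both lists had the order of C1q, highest in resident macrophages and lowest in control TAM. Of 14 large peritoneal macrophage markers, which include Fcna and Vsig4, 11 rose and 3 fell in control TAM, and 2 rose and 8 fell in cKO-labelled TAM. Their sums lay at 3344 to 3457, 3479.9 to 3534 and 3400.4 to 3422 FPKM, or 834 to 858, 2987 to 3029 and 2740.0 to 2743 without Fcna. Of 8 monocyte markers 7 rose and 1 fell, then 1 rose and 3 fell, with sums of 1407 to 1518, 1357 to 1370.0 and 1214 to 1249 FPKM, or 198 to 209, 1254 to 1268 and 1082 to 1119.9 without F13a1. Of 5 eosinophil markers 4 rose and 1 fell, then 4 rose, with sums of 45.7 to 59.5, 88.7 to 91.7 and 132 to 133 FPKM. Without Ear2, the marker that fell, the sums were 0.641 to 1.22, 73.7 to 77.1 and 102.6 to 105.7 FPKM. Prg2 was listed at 0 in resident libraries. The part of these cells in the complement changes was not tested.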

How the data were processed

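RNA-seq was made from 10 sorted macrophage libraries (SMART-Seq v4 amplification and Nextera XT, per the labels' protocols), without strand information. The authors deposited 1 table of FPKM, with 1 column per library. Per the submitters' processing notes, the tools include STAR and edgeR and the genome was mm10 or GRCm38, with no version or role. No source used here gives the gene lengths, library scaling or gene filter. All 10 columns were used, matched by title.

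The 11127 genes that reached 1 FPKM in 3 or more libraries were fitted with limma 3.58.1 in R 4.3.3 on log2(FPKM + 1), with 3 group means, 7 residual degrees of freedom, a variance trend and empirical Bayes moderation. P-values were adjusted by Benjamini-Hochberg over all genes tested, at 0.05. This scale understates the change of low genes. The fit was tested on simulated data. Values are mean ± SD (n = 4, 3 and 3). The C1q ratios were compared by exact two-sided permutation.

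Whole reads were recovered from the FPKM by taking each gene's length from its longest transcript (85.8% to 87.1% of values between 1 and 200 reads came out whole within 0.05). They are estimates for genes of other length. Over the 12 same-group pairs of libraries the median squared difference was 1.80 to 3.25 times counting noise, so no library was counted as a copy. Such a ratio does not show whether the libraries of a group came from separate animals.

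All 9 genes are named. Of the other complement genes, up to 5 per list and comparison were named: those called with the largest change and 5 FPKM or more on average in the higher group. C2, C8g, C5ar2, C4a and the neighbours were chosen otherwise, C2 and C8g after their values were seen. The genes and lists were chosen with earlier results of these data known. Alternatives were other pseudocounts, filters, scalings, variance models, a replicate block, each library left out, and a 2-fold limit. Rescaling without acinar genes, recovered read totals, voom on recovered reads and quantile normalization of the C1q ratios were added after seeing the data. Values of 1 gene on these lists, which the counts include, are not reported here.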

Additional observations from a re-analysis of the deposited data

How the results depend on the processing

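With a 2-fold limit 2, 0 and 3 of the 9 genes were called (control TAM against resident macrophages, cKO-labelled against control TAM, cKO-labelled against resident), and 13, 2 and 12 of the other 23 complement genes. Of all genes tested, 9.98%, 1.01% and 8.95% were called upward at this limit, and 6.95%, 0.315% and 6.17% downward, in the same order of comparisons. Without each library in turn the calls among the 9 were 9, 7 to 8, and 9, and among the other complement genes 21 to 22, 14 to 16, and 20 to 21. C3ar1 reversed in control TAM against resident macrophages under a common total (0.10), a common total without acinar genes (0.025) and recovered read totals (0.016). Against resident macrophages its fall in cKO-labelled TAM was not past the threshold under a common total (-0.04, adjusted p = 0.229) or recovered read totals (-0.07, adjusted p = 0.0555). The cause was not tested. All other log2 changes of the 9 genes kept their direction under every alternative run, and the calls lost or gained are those given in the report for C1qb, Cfb and C3ar1.

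Replicate numbers are shared between groups, but nothing in the labels ties them to a shared animal or day. Correlations of same-numbered libraries' deviations ran from -0.06 to 0.11, and those of differently numbered libraries from -0.15 to 0.13. With 3 or 4 libraries per group, these values cannot show whether a number stands for a shared animal or day. With the replicate number as a block 9, 8 and 9 of the 9 genes and 21, 14 and 20 of the other complement genes were called. Voom on recovered reads called 9, 8 and 9. Depth limits Cfb most, with at least 171 estimated reads per library. Under quantile normalization the C1q ratio differences between cKO-labelled and control TAM reversed (C1qb to C1qa -0.23, C1qc to C1qa -0.10). Past the threshold no longer were C1qc to C1qa in control TAM (-0.063) and cKO-labelled TAM (-0.16) and C1qb to C1qa in cKO-labelled TAM (0.11), each against resident macrophages. Leaving out a library takes the exact test of the C1q ratios below the size at which it can pass 0.05. The C1qb to C1qa differences from resident macrophages then ran from 0.18 to 0.21 (control TAM) and 0.24 to 0.25 (cKO-labelled TAM), and those of C1qc to C1qa from -0.086 to -0.071 and from -0.062 to -0.050.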
